A study of Homo sapiens with 6 samples.

Results

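Accessible chromatin was examined at 10 genes that lie at risk loci for type 2 diabetes, namely TCF7L2, SLC30A8, ADCY5, CDKAL1, IGF2BP2, WFS1, ARAP1, STARD10, C2CD4A and C2CD4B. A region was taken as a promoter region of a gene when it overlapped the 2 kb on either side of a protein-coding transcript start site in GENCODE 44. It was taken as a distal region when it was no promoter region and the protein-coding start site nearest to its middle, within 100 kb, was that of the gene. Of 108542 accessible regions in the study, 120 met these rules, of which 25 were promoter regions and 95 were distal. By mean signal, the strongest promoter region stood within STARD10 and the strongest distal regions around SLC30A8, and the lowest summed distal signal was that of IGF2BP2.

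The study profiled open chromatin by ATAC-seq, in which the Tn5 transposase cuts accessible DNA, in EndoC-βH3 cells. This is 1 human beta cell line, derived from fetal pancreas and immortalised with SV40 large T antigen and hTERT, whose immortalising cassette can be excised by an inducible Cre. All 6 libraries were therefore of this line, each made from 100000 cells. In the senescent group (n = 3), 4-hydroxytamoxifen had been given for 3 weeks to excise the cassette; the labels give its concentration as 1 mM and the methods of the study as a micromolar dose. The non-senescent group (n = 3) had no excision. The value available for each region was the authors' mean signal over the 6 libraries, which is a count scaled for library size. It holds both groups together, so the groups were not compared here, no value has an error or a replicate check, and the depth of each library is unknown.

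The members act at different steps of beta cell function. SLC30A8 encodes ZnT8, the transporter that loads zinc into insulin granules, and ADCY5 encodes an adenylyl cyclase that makes cAMP, a signal that amplifies insulin release. TCF7L2 is a transcription factor that acts with beta-catenin downstream of Wnt, WFS1 encodes an endoplasmic reticulum membrane protein that is lost in Wolfram syndrome, and CDKAL1 modifies a tRNA that reads lysine codons. STARD10 is a lipid transfer protein, ARAP1 a GTPase-activating protein for Arf proteins, IGF2BP2 an mRNA-binding protein, and C2CD4A and C2CD4B are small related proteins with a C2 domain. Many risk signals at such loci fall outside coding sequence, so the open chromatin around the genes is of interest.

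The middle of the strongest distal region is printed below for 4 members, C2CD4B, ARAP1, TCF7L2 and C2CD4A, since these are sequences of high signal away from promoters. The sequences are from the plus strand of hg38 and run 5′ to 3′. Capitals mark matches to the short motifs described further on.
C2CD4B distal, chr15:62135569-62135868: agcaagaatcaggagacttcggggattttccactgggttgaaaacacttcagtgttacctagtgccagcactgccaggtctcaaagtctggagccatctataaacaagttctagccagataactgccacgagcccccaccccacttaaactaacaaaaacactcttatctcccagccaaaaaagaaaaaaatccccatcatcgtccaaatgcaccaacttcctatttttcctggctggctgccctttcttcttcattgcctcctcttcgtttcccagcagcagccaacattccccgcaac
ARAP1 distal, chr11:72716435-72716734: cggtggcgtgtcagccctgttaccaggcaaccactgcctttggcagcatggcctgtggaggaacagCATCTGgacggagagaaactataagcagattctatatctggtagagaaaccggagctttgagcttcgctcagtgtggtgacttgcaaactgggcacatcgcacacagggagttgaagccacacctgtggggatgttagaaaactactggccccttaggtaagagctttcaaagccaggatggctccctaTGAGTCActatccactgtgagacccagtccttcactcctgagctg
TCF7L2 distal, chr10:113020262-113020561: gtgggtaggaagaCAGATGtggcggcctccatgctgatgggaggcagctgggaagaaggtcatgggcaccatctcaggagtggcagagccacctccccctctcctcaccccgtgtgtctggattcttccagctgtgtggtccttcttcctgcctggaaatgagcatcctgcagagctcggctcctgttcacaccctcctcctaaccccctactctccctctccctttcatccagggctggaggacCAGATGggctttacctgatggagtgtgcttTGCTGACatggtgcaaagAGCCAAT
C2CD4A distal, chr15:62099246-62099545: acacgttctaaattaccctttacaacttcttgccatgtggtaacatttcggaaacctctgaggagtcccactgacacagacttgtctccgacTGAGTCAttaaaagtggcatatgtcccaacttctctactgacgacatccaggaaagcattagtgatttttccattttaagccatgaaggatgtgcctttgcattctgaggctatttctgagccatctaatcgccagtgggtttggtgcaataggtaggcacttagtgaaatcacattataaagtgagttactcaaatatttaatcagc

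The 300 bases of the C2CD4B region, the strongest distal region apart from those of SLC30A8, held none of the 14 motifs searched. The ARAP1 sequence held an E-box and an AP-1 site, and the C2CD4A sequence an AP-1 site. The TCF7L2 sequence held 2 E-boxes, a MAF half-site and an NF-Y site. By GC content, the TCF7L2 sequence was the highest of the 4, at 58.0%, and the C2CD4A sequence the lowest, at 41.3%.

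Promoters of beta cell genes had a higher mean signal than those of marker genes of other cells. All 20 beta cell genes examined had a promoter region, with a median mean signal of the strongest of 1599 and with INS, which encodes insulin, at 7894 and IAPP, which encodes amylin, the lowest at 183.5. Of 25 genes that mark alpha, delta, acinar, duct, fibroblast, endothelial, immune or liver cells, 16 had a promoter region, and the median of the strongest was 136.5. No promoter region was found at PTPRC, CD3E or SPI1 of immune cells, at CDH5 of endothelium, at COL3A1 or PDGFRB of fibroblasts, at PRSS1 of acinar cells, at CFTR of ducts or at ALB of liver. High values were nevertheless found at CPA1 of acinar cells (2101), IRX2 of alpha cells (1340) and KRT19 of ducts (1059).

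The promoter regions of the risk genes were spread over the range of promoters in general. Their median mean signal was 368.9 (quartiles 113.7 and 896.1), against 506.3 (153.6 and 1087) for all 20094 promoter regions. Per kb of region, the medians were 490 and 507. The median percentile of the 25 regions, that is the share of all promoter regions with a lower mean signal, was 42.0. Of the 25, 2 were in the top 10% and 3 in the bottom 10%. Their GC content was like that of promoters in general, at a median of 60.9% against 62.2%, while the median ratio of observed to expected CpG was 0.497 against 0.716. With 1 canonical start site per gene the number of promoter regions was 13 instead of 25, so much of the set lies at alternative starts.

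The distal regions ranked somewhat higher among their kind. Their median mean signal was 119.8 (quartiles 64.2 and 311.8), against 88.4 (40.6 and 221) for all 55158 distal regions within 100 kb of a start site. Per kb of region, the medians were 222 and 187. Their median percentile was 59.0, and 63 of the 95, or 66.3%, lay above the median of all distal regions. In the top 10% of distal regions were 16 of the 95 (16.8%), and in the bottom 10% were 6 (6.32%). The top 10% held 7 regions of SLC30A8, 2 each of TCF7L2, WFS1 and STARD10, and 1 each of ARAP1, C2CD4A and C2CD4B, but none of ADCY5, CDKAL1 or IGF2BP2. When start sites of noncoding genes were also allowed to claim regions, only 39 distal regions remained with the risk genes, so that the assignment to a gene depends on the annotation.

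**Figure D1:**
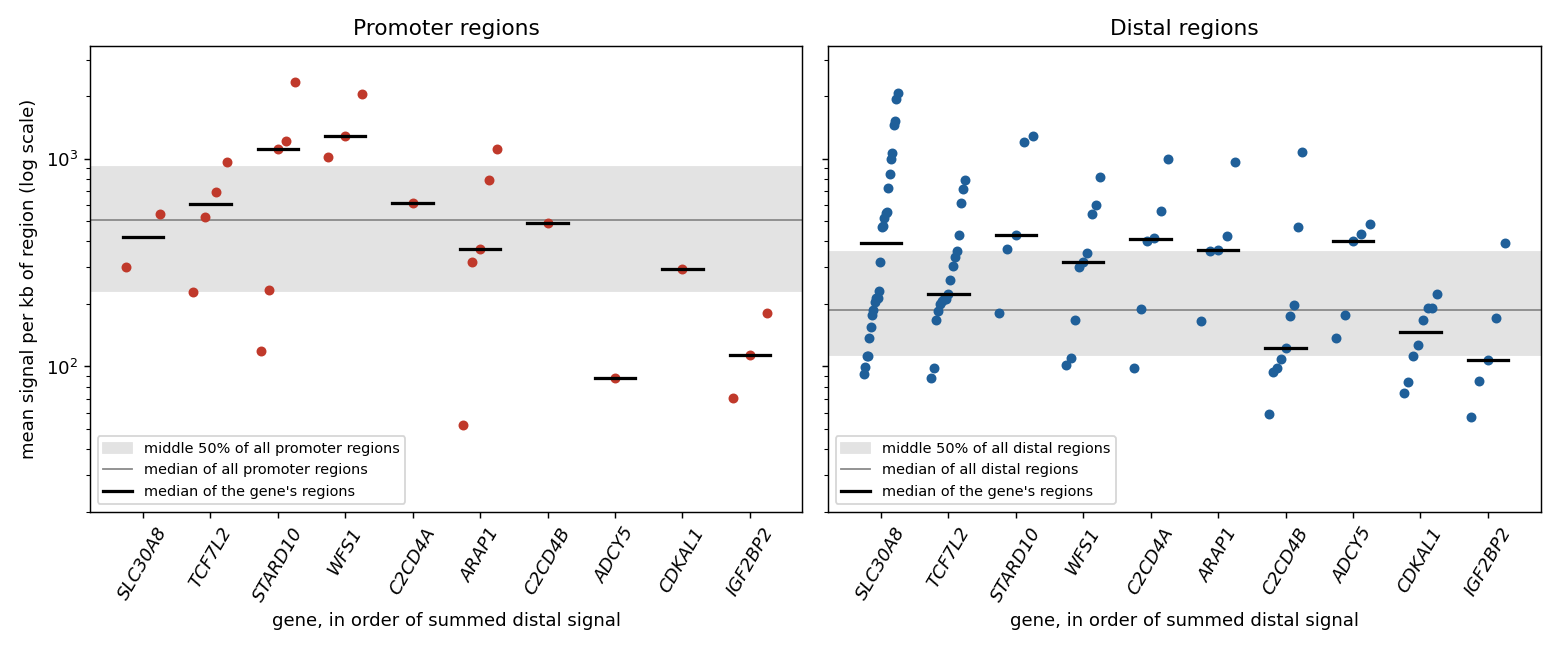
Mean signal per kb of each promoter region (left) and distal region (right) of the 10 genes, on a log scale, with a bar at the median of each gene and, in grey, the median and middle 50% of all regions of the kind. All 3 WFS1 promoter regions lay above the grey band and all 3 IGF2BP2 ones below it, and the distal regions of SLC30A8 ran from 91.5 to 2076 per kb.

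Most of the distal regions were intronic or intergenic. The middle of 46 of the 95 (48.4%) was in an intron of the gene itself and that of 35 (36.8%) outside any coding gene. Of the others, 1 was in an intron of the neighbour PPP2R2C and 13 were in exons or in parts of a gene that its canonical transcript does not cover, of which 11 lay in the long upstream part of SLC30A8. By distance to the nearest start, 21 regions were closer than 10 kb, 44 were at 10 to 50 kb and 30 at 50 to 100 kb. The last class made up 31.6% of the distal regions of the risk genes and 23.7% of all distal regions. Its median signal per kb was 311, against 180 for all distal regions at that distance. Most regions of this class belonged to SLC30A8 or TCF7L2, and ARAP1, STARD10, WFS1 and C2CD4A had none in it. Those of SLC30A8 ran from 99.5 to 2076 per kb and included the highest of the class. The share and the median of this class therefore lean on these genes, and they were not computed without SLC30A8.

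**Figure D2:**
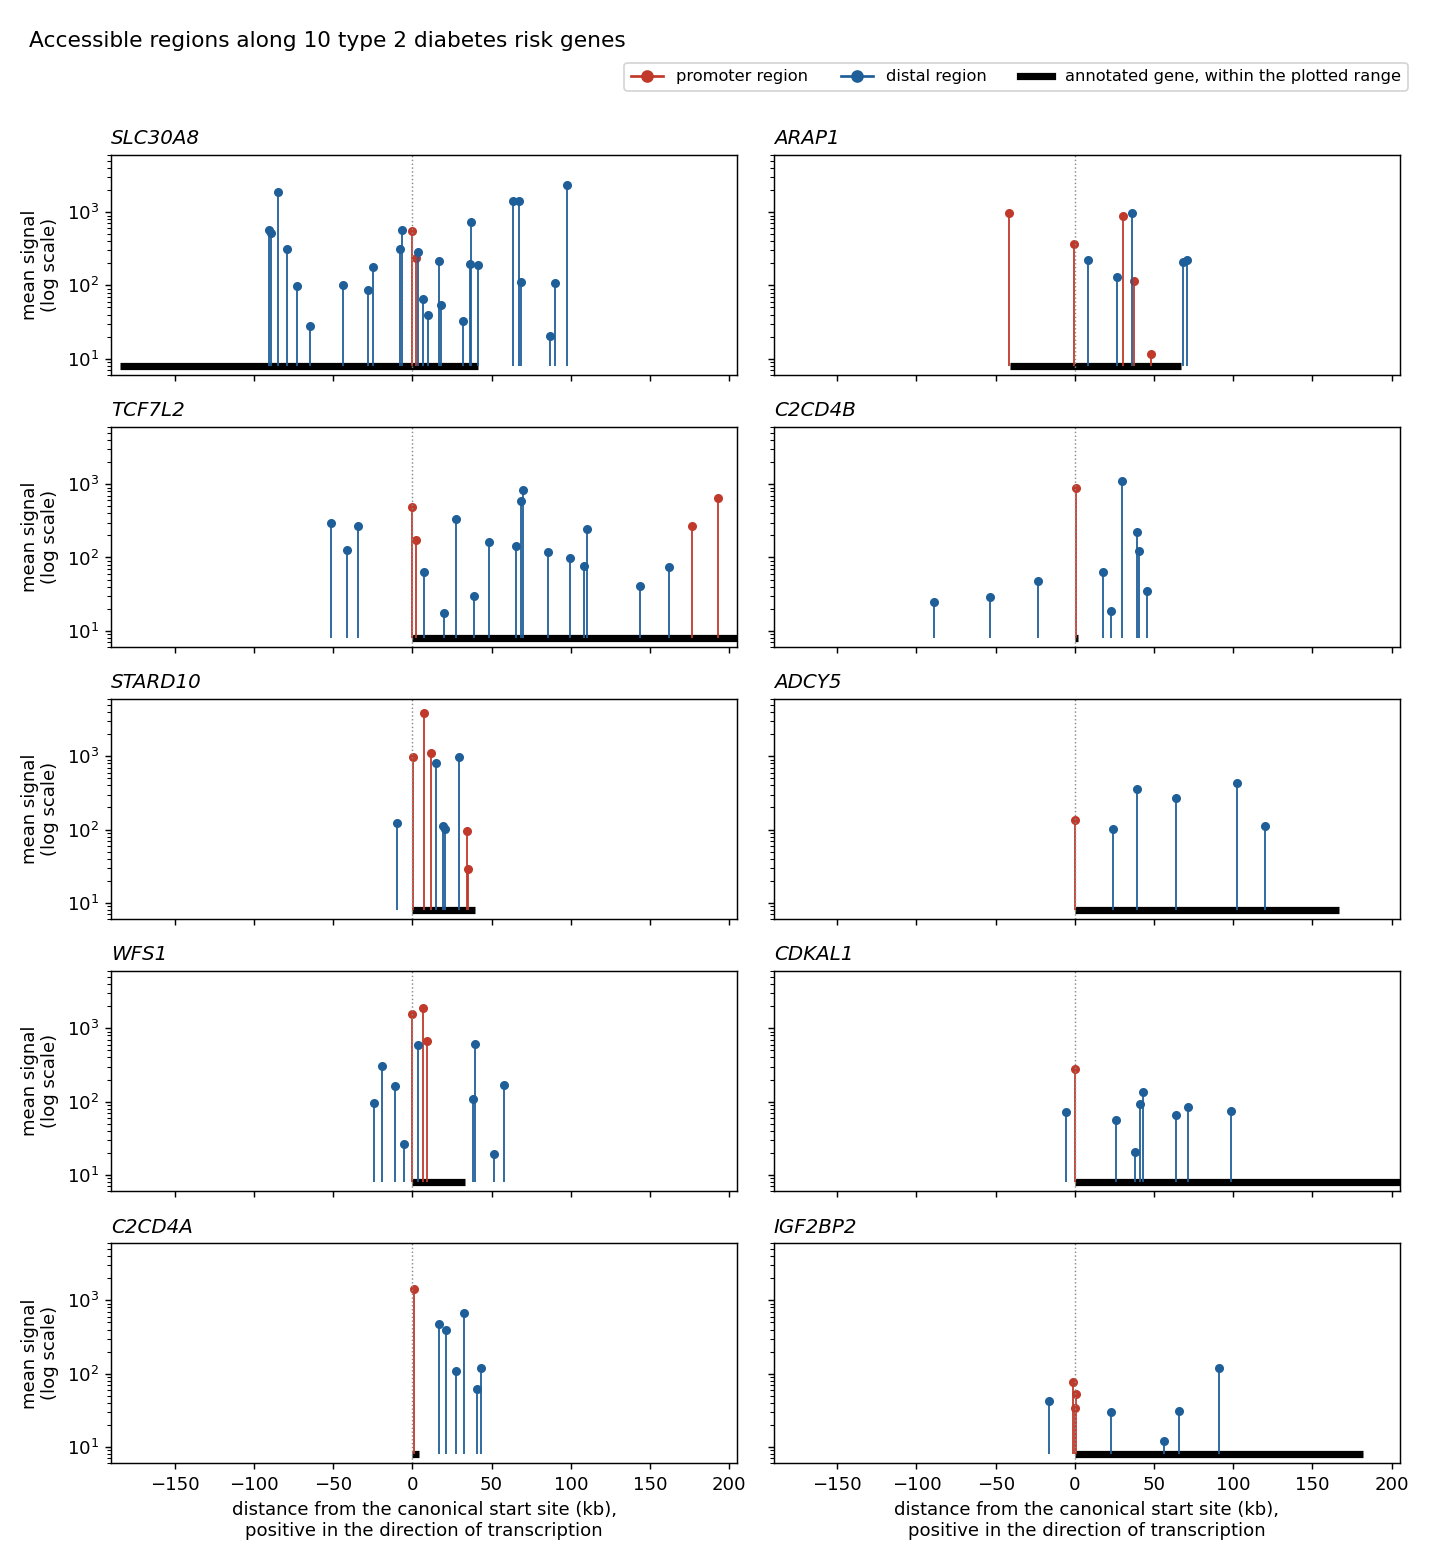
Regions of each gene by the distance of their middle from the start of the canonical transcript (dotted line), in kb and in the direction of transcription, with the mean signal on a log scale; red marks promoter regions, blue distal regions and the black bar the annotated gene where it falls in the plotted range. The highest distal signal, 2319, stood at the right of the SLC30A8 panel, 97.2 kb from the nearest start site of the gene, and the highest promoter signal, 3925, was within STARD10.

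SLC30A8 had the most distal regions and the highest summed distal signal of the 10 genes. Its 26 distal regions summed to a mean signal of 11885, over 16749 bases of open chromatin, which was higher than in 99.9% of all 19676 protein-coding genes. Per kb of open chromatin this was 710, below STARD10 alone. The 26 regions included the 4 strongest distal regions of the whole set. The strongest, at chr8:117231863-117233056, had a mean signal of 2319 and was also the region farthest from a start site of the gene, 97.2 kb downstream. The next were chr8:117049262-117050536, 84.9 kb upstream of the nearest start, at 1857, and a pair 63.4 and 67.4 kb downstream of theirs at 1436 and 1426. Both of the latter, and the strongest region as well, lie past the 3′ end of the gene. Per kb, the highest of the 26 was the region 63.4 kb downstream, at 2076, and the lowest was at 91.5.

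By contrast, the promoter of SLC30A8 was moderate. The region over the canonical start, chr8:117134406-117135438, had a mean signal of 559.1 and stood at the percentile of 52.6 among promoter regions, with a GC content of 41.1%. A second promoter region in intron 1 had 235.6. Of the 7 start sites annotated for the gene, the 4 around the canonical start lay inside an accessible region. The other 3 lie far upstream, and the nearest region to them was 11412 bases or more away, at the promoter of the neighbouring gene AARD. Among genes with a promoter region, the strongest promoter region of SLC30A8 ranked at a percentile of 34.2, while its strongest distal region ranked at 98.2.

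TCF7L2 had 17 distal regions and 4 promoter regions. The distal regions summed to 3529, the second highest of the 10 genes, and 14 of them were in introns of the gene. The strongest, chr10:113019724-113021099 in intron 4, had a mean signal of 844.9 (614 per kb) and lay 69.5 kb downstream of the nearest start. Next to it, chr10:113018516-113019254 had 582.1 but was denser, at 788 per kb. The region farthest from a start, at 85.1 kb in the same intron, had 119.2. At the other end, a region of intron 4 at 19.4 kb had 17.5 and was among the 3 weakest distal regions of the set.

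The promoter regions of TCF7L2 lay over annotated starts or in introns downstream of them. The region over the canonical start had a mean signal of 486.4. That in intron 6 covered no start, with its middle 1715 bases downstream of the nearest, and had 639.7, the highest of the 4. Per kb the order was reversed, with 963 at the canonical start and 691 in intron 6. The other regions had 265.2, over an internal start, and 172.8, in intron 3 with its middle 1325 bases downstream of the nearest start. Of the 15 start sites of the gene, 12 had a region within 2 kb and 4 lay inside one.

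STARD10 and ARAP1 lie next to each other on chromosome 11 and are both transcribed from the minus strand. The most upstream annotated start of ARAP1 and the canonical start of STARD10 lie in a single region, chr11:72793438-72794310. It served as promoter region of both, with a mean signal of 976.9. Where the annotated genes overlap, the strongest region was chr11:72786048-72787716, in intron 1 of STARD10, at a mean signal of 3925 (2352 per kb). It lay at the percentile of 99.4 among promoter regions and was the strongest promoter region of the set. A start of STARD10 is annotated 81 bases from its edge, and the canonical start lies further upstream, in the shared region.

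The remaining STARD10 promoter regions had 1111, 96.1 and 29.2. All 14 annotated starts of the gene had a region within 2 kb. Its 5 distal regions summed to 2102, and 4 of them were in intron 2. The strongest, chr11:72764224-72765025, had 962.3 (1200 per kb), and chr11:72778755-72779379 had 802.7 but 1284 per kb. The region farthest from a start, 9.72 kb upstream, had 123.5. At 794 per kb over all distal regions, STARD10 was the densest of the 10 genes.

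ARAP1 had its strongest region of its own in intron 3, at chr11:72716085-72717084, with 962.9 (963 per kb). The region at an internal start, chr11:72721751-72722862, had 875.0, whereas the one over its canonical start had 368.9. A region near an internal start in intron 13 had 11.7 and was the weakest of all 120. The farthest of its 5 distal regions, in intron 1 at 8.34 kb from a start, had 225.8. By mean signal, all 5 distal regions of ARAP1 and all 5 of STARD10 were above the median of all distal regions. Per kb, chr11:72683697-72684947 of ARAP1 (166) and chr11:72803430-72804113 of STARD10 (181) were below that median, which was 187.

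The C2CD4A and C2CD4B genes, which are short and face each other on chromosome 15, had their distal regions in the intergenic stretch between them and beyond. C2CD4A had 6 distal regions, all on the side towards C2CD4B. The strongest, chr15:62099053-62099737, had 682.7 (997 per kb), followed by 482.6 and 389.0, and the farthest, at 43.4 kb, had 117.6. C2CD4B had 9 distal regions, of which chr15:62135201-62136236 had 1121 (1082 per kb) and held 66.6% of the summed distal signal of the gene. It was the fifth strongest distal region of the set. The other 8 were between 18.8 and 222.7, and the 3 upstream of the gene had at most 48.1, with the farthest, at 89.2 kb, at 24.5.

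Each of these genes had a single promoter region, which covered the start site and part of its coding exon. It had a mean signal of 1416 (613 per kb) at C2CD4A and 896.1 (490 per kb) at C2CD4B. The sequences of these regions are related. An alignment of 979 bases between them, on opposite strands, had 93.8% identity, with 918 identical bases and a longest identical run of 96 bases. It took up 42.3% of the C2CD4A region and 53.4% of the C2CD4B region, so that short reads from that part can be hard to place and the split of the signal between the genes is uncertain.

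WFS1 had strong promoters. Its promoter regions had a mean signal of 1874 in intron 1 (chr4:6276020-6277477), 1555 over the canonical start and 664.7 in intron 2. Per kb the region over the canonical start was the highest, at 2044, against 1285 in intron 1. All 8 annotated starts of the gene had a region within 2 kb, and 7 lay inside one. Its 9 distal regions summed to 2099. The strongest, chr4:6308680-6309712, is past the 3′ end of the gene, 31.5 kb from the nearest start, and had 619.9 (600 per kb), and a region in intron 1 only 3.30 kb from a start had 584.6 (816 per kb). The farthest, at 49.8 kb in intron 8 of PPP2R2C, had 168.3.

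ADCY5 had a weak promoter but distal regions that were all above the median of distal regions by mean signal. Its single promoter region, chr3:123448220-123449780, had a mean signal of 136.9 over 1561 bases (87.7 per kb) and a GC content of 75.1%. The 5 distal regions, all in introns, had 103.3, 110.3, 270.5, 355.7 and 431.9, and the median was 404 per kb. Per kb, those at 103.3 and 110.3 had 176 and 137, below the median of 187 for all distal regions. By mean signal the strongest was chr3:123346374-123347372 in intron 3, and the farthest, 75.5 kb from a start in intron 5, had 110.3. Of 10 annotated starts, only 2 had a region within 2 kb.

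CDKAL1 had 1 promoter region, at 279.7, and 8 distal regions, of which 2 were above the median of all distal regions by mean signal. The strongest, chr6:20577061-20577766 in intron 4, had 134.6, and the farthest, 86.4 kb from the start, had 74.9. The gene is 698 kb long, however, and the limit of 100 kb leaves most of it out. Over the gene body there were 39 regions, and 31 of them lay too far from the start to count. These ranged from 10.7 to 1759 with a median of 102.4. The strongest of them, chr6:20868396-20869194, lay 322 kb from the nearest start and had 2201 per kb, and another at 145 kb had 1091. The strongest open regions of the CDKAL1 gene were thus among those that the rule did not take.

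IGF2BP2 had the lowest strongest promoter region and the lowest strongest distal region of the 10 genes by mean signal. Its median distal signal per kb, 107.04, was the lowest as well. Over all distal bases, however, its signal was 168 per kb, and CDKAL1 was the lowest at 139. The highest distal value per kb was also lower at CDKAL1 (222) than at IGF2BP2 (395). Its 3 promoter regions had 76.5, 53.6 and 33.7, and none of its 4 start sites lay inside a region. The 5 distal regions had 119.8, 42.8, 30.6, 29.95 and 11.9, the last of which was the weakest distal region of the set. The strongest, chr3:185734027-185734329 in intron 2, was also the farthest from a start, at 87.0 kb. A region of 431.5 in the 3′ part of the gene body was nearer to a start of SENP2 and was not counted.

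The number of distal regions also reflects how much DNA is nearest to a gene. TCF7L2 had the longest such stretch, at 402 kb, and STARD10 the shortest, at 49.1 kb. Per 100 kb, C2CD4A had 11.4 distal regions, STARD10 10.2, WFS1 9.52, SLC30A8 8.93, ARAP1 6.78 and C2CD4B 6.03. CDKAL1 had 4.51, TCF7L2 4.23, IGF2BP2 3.28 and ADCY5 2.97. The median over all 19676 protein-coding genes was 2.18 with an upper quartile of 4.51. Hence all 10 genes were above the median of genes, and 6 were above the upper quartile by more than 1 region per 100 kb.

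**Figure D3:**
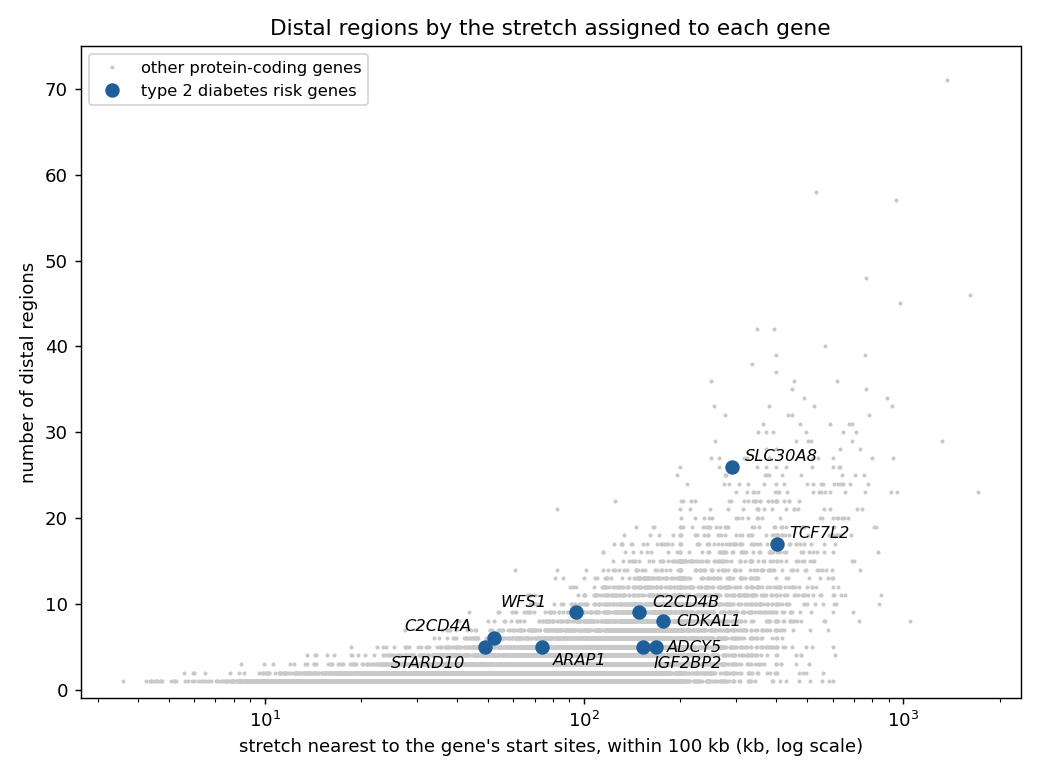
Number of distal regions of each gene against the stretch of DNA that is nearest to its start sites and within 100 kb (log scale), for the risk genes (blue) and the other protein-coding genes with at least 1 distal region (grey). SLC30A8, with 26 regions over 291 kb, and TCF7L2, with 17 over 402 kb, stand highest among the risk genes.

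By the strongest region of each gene, the risk genes ranked higher among genes at distal regions than at promoters. The median over the 10 genes of the percentile of the strongest distal region, among genes that have one, was 81.4, and that of the strongest promoter region was 45.8. For the 20 beta cell genes these medians were 95.2 and 80.6. For 54 other genes that lie near type 2 diabetes signals or are mutated in rare forms of diabetes they were 75.4 and 64.6, and 53 of these genes had a promoter region, with PPARG, the adipocyte regulator, as the exception. SLC30A8 shared its pattern of a moderate promoter and strong distal regions with ABCC8, a subunit of the beta cell potassium channel (promoter percentile 31.6, distal 99.8), and NKX2-2, a transcription factor of islet cells (25.7 and 99.8). These genes were picked after their values were seen. The strongest region is a maximum, which tends to rise with the number of regions of a gene. The median number of distal regions was 7 for the risk genes, against 1 over all protein-coding genes. It was 10 for the beta cell genes and 5.5 for the other diabetes genes. Region by region, the median percentiles of the risk genes were 59.0 at distal regions and 42.0 at promoter regions.

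**Figure D4:**
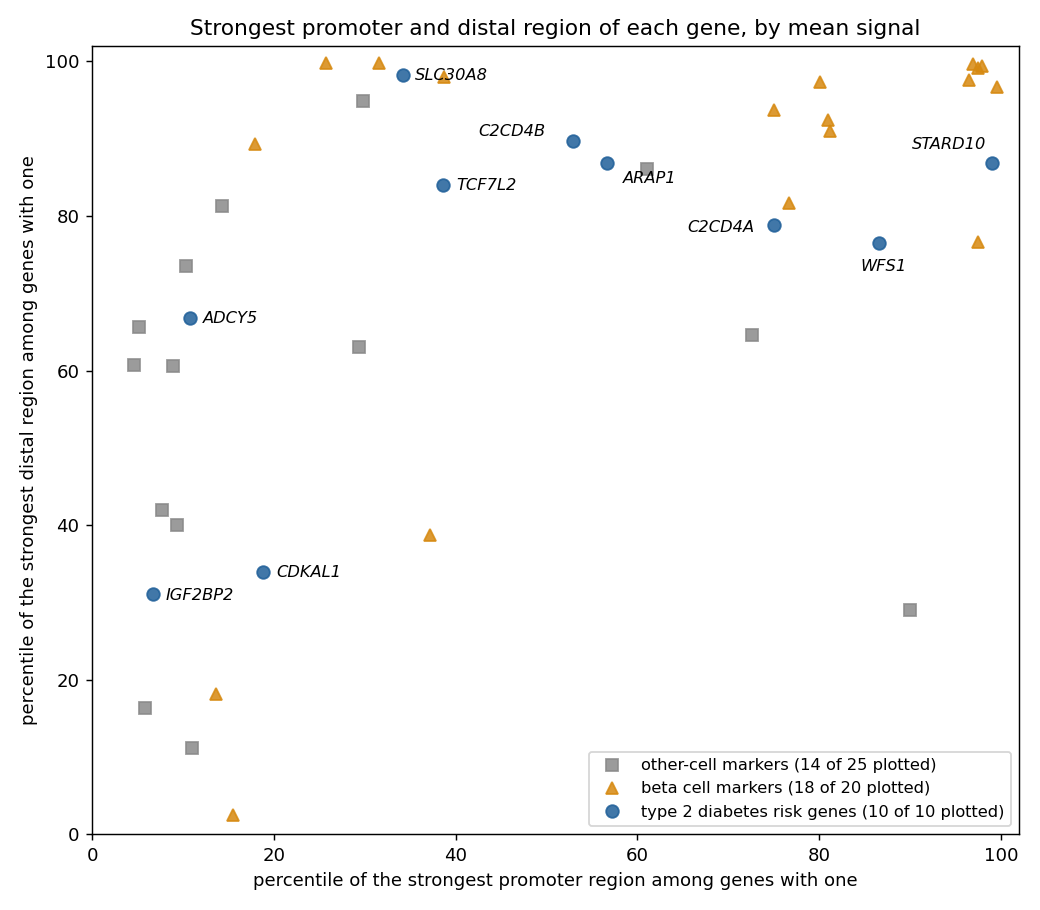
Percentile of the strongest distal region against that of the strongest promoter region, by mean signal among genes that have one, for risk genes (circles), beta cell markers (triangles) and markers of other cells (squares) with both kinds of region. STARD10 lies at 98.98 and 86.8, IGF2BP2 at 6.68 and 31.0, and SLC30A8 at 34.2 and 98.2 (promoter and distal).

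Short motifs were counted in the 300 bases around the middle of each region, on both strands and as exact letters. They were the E-box of NEUROD1-type factors (CAGATG), a homeodomain site (TAATTA), FOX (TGTTTAC), an RFX half-site (GTTGCCA), a MAF half-site (TGCTGAC), an HNF1 half-site (GTTAAT), the CTCF core (AGGGGGC), AP-1 (TGANTCA), the GC box (GGGCGG), NF-Y (ATTGGCT), NRF1 (GCATGCGC), ETS (CCGGAAGT), CRE (TGACGTCA) and GLIS (TGGGGGGT). A match to 1 motif can overlap a match to another, since the letters of the GC box and the CTCF core overlap in part. In a region narrower than 300 bases, the window also takes in bases outside the region. The E-box was the most frequent in the distal regions, in 36 of 95 (37.9%), against 32.6% of all distal regions. AP-1 sites, the element bound by FOS and JUN proteins, were in 18 (18.9%), against 11.3%. Of these 18 regions, 6 belonged to SLC30A8, 4 to TCF7L2 and 3 to C2CD4A.

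Other motifs of islet factors were near or under the share in all distal regions. Homeodomain sites were in 10.5% against 9.57%, MAF half-sites in 8.42% against 7.67%, RFX half-sites in 5.26% against 5.53%, FOX sites in 6.32% against 9.25% and HNF1 half-sites in 9.47% against 14.9%. The NRF1 motif was in the window of 3 regions, 1 each of TCF7L2, ADCY5 and IGF2BP2, which was 3.16% against 0.444%. The TCF7L2 and IGF2BP2 regions, of 201 and 208 bases, are narrower than the window. Over the whole region instead of the window, the share was 2.11%, so at least 1 match lay outside its region. No distal region held the ETS or GLIS letters in this window, and they were rare in all distal regions as well, at 0.321% and 0.930%. In the promoter regions, GC boxes were in 11 of 25 (44%), against 55.6% of all promoter regions, and the CTCF core in 5 (20%), against 16.3%. These shares describe letters in a window and were not tested, and neighbouring regions of 1 gene are not independent.

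**Figure D5:**
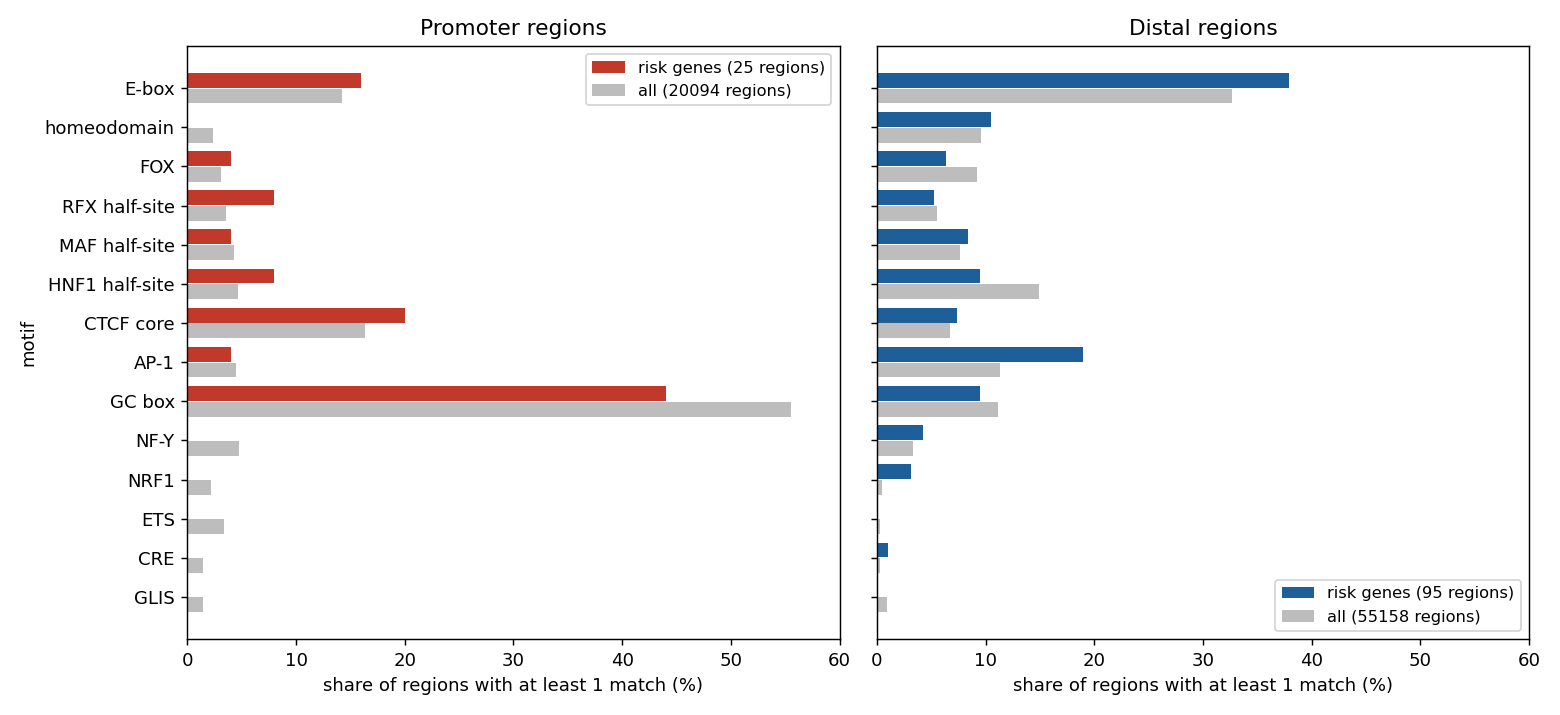
Share of regions, in percent, with at least 1 exact match to each of 14 motifs in the 300 bases around the middle, for the promoter (left, red) and distal (right, blue) regions of the risk genes and for all regions of the kind (grey). The E-box stands at 37.9% and AP-1 at 18.9% of the distal regions of the risk genes, against 32.6% and 11.3% of all distal regions.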

How the data were processed

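ATAC-seq regions of 6 EndoC-βH3 libraries (3 senescent and 3 non-senescent by their labels) were used. As its methods state, the authors trimmed reads (Trim Galore), mapped them to hg38 (Bowtie2), took out mitochondrial and duplicate reads, applied the Tn5 shift, defined peaks (MACS2), counted reads over the merged peaks and ran DESeq2; the versions are not given in the sources used here. The deposited mean signal is the authors' average over all libraries of counts scaled by size factor. The 5 further columns hold the authors' own comparison of the groups (fold change, its error, the statistic and p-values) and were not used. The table holds no column of a single library, so the planned test of the groups on counts was not run, depth per library is unknown and precision cannot be given.

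Regions were assigned with GENCODE 44 (pandas 2.3.3, numpy 2.4.6), reading the starts in the table as 0-based and printing them 1-based. Signal per kb is the mean signal over region width. Percentiles are among all regions of the same kind. Promoter regions of C2CD4A and C2CD4B were aligned with blastn 2.17.0. The assignment and the motif search were tested on simulated data. For each gene the strongest promoter and distal region and the farthest distal region are named, and over all genes the 5 strongest and 3 weakest distal regions; the rule asked for the sequence of the strongest distal region of 6 genes, without chromosome 8, of which 4 are printed and the others are not reported here. The genes, lists and rules were chosen with earlier results of these data known.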

Additional observations from a re-analysis of the deposited data

How the results depend on the processing

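No paired analysis was possible because the values are means over all 6 libraries, and no column holds 1 library. For the same reason the edgeR and DESeq2 fits, other normalisations, a filter on the counts of each library and leaving out each library were not run. A filter on the mean signal was run. At 10 or more it left 25 promoter and 95 distal regions, and at 50 or more 22 and 76. Of 34 alternatives for the counts, ranks, order and motifs, 30 were classed as close to the reported value. This class was broad. For counts it allowed a ratio of up to 1.5, so that 65 distal regions with a limit of 50 kb, against 95, fell in it. The median percentiles had intervals of 27.0 to 67.1 at promoter regions and 54.8 to 70.0 at distal regions. With 1 canonical start site per gene the promoter regions numbered 13 instead of 25, and with start sites of all gene types the distal regions numbered 39 instead of 95. In the order of the genes by summed distal signal, 4 of 10 kept their place when the strongest distal region alone was used and 2 when the number of distal regions was used. The median percentile of the distal regions was 58.0 per kb of width, 58.5 without SLC30A8 and, in an alternative added after seeing the data, 62.8 among all regions outside promoters; that of the promoter regions was 48.6 per kb and 34.8 with 1 start site per gene. Of 28 values for single motifs over other windows, 24 stayed within the counting interval.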
